A study of Mus musculus with 9 samples.

Results

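The 37 genes described here encode the proteins that build autophagosomes and the receptors that load cargo into them. They were taken by symbol from the deposited table of 54532 genes: 6 cargo receptors, 5 ATG8 proteins, 5 members of the ULK initiation complex, 6 members of the class III PI3-kinase complex, 5 proteins of membrane supply, 6 conjugation enzymes and 4 ATG4 proteases. The rule uses gene symbols alone, and all 37 had enough counts to be tested, among 13915 genes in all. The list was chosen with earlier results of these data known, so its contrasts with all genes are descriptive.

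In autophagy a cell encloses cytoplasm in a double membrane and delivers it to the lysosome for breakdown, a route that cells use under nutrient shortage and to remove damaged organelles and protein aggregates. The ULK kinase complex starts the process, the class III PI3-kinase complex marks the forming membrane with a lipid, and ATG9 and ATG2 supply membrane to it. A ubiquitin-like conjugation system then attaches ATG8 proteins (the LC3 and GABARAP families) to the membrane, and cargo receptors bind ATG8 and cargo at the same time. Several ATG8 proteins and receptors are themselves degraded in the lysosome, so an mRNA level is not a measure of autophagic flux, which was not measured here.

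The 9 RNA-seq libraries were made from 4T1, a mammary carcinoma line of the mouse that serves as a triple-negative breast cancer model, grown in high-glucose medium with serum and antibiotics. The cells of the 3 Control libraries received medium alone. The 3 Cu_TCPP libraries came from cells given Cu-TCPP(Fe)-PEG, a material that the labels describe as consuming glutathione, and the 3 Au_TCPP libraries from cells given Au/Cu-TCPP(Fe)-PEG, which the labels describe as consuming glutathione and acting as a glucose-like oxidase. Treatment lasted 24 h, all groups derive from the same cell line, and doses are not given in the sources used here, so whether the doses of the materials matched is not known. The labels do not say whether replicates were separate cultures. The p-values therefore measure the spread between these libraries only, and that spread may be technical.

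Total counts lay between 15477324 and 17494776 per library. The epithelial markers Krt8, Krt18, Epcam and Cdh1 were detected in every library, with a summed level of 2040 to 3760 CPM, while Esr1, Pgr and Erbb2 together reached 29.0 to 76.4 CPM. Of the markers of other cell types, 3 of 7 macrophage, 2 of 6 fibroblast, 1 of 5 lymphocyte and 1 of 4 endothelial genes had enough counts to be tested, and Adgre1, Lum, Pdgfrb and Ms4a1 had no count in any library. Au_TCPP replicate 2 stood apart from the other Au_TCPP libraries, with 2.37% of counts from mitochondrial genes against 1.09% to 1.47% in the other 8 libraries; without it, no call of the 37 genes for Au_TCPP against Control changed. CPM here are read counts scaled to a common library size with TMM factors, and a gene was called higher or lower at an adjusted p under 0.05 in edgeR's quasi-likelihood test. In bulk RNA, fewer cells of a type and less RNA per cell cannot be told apart.

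The autophagy genes took 0.319% to 0.332% of all counts in Control, 0.236% to 0.243% in Cu_TCPP and 0.501% to 0.636% in Au_TCPP, so the groups did not overlap. Without Sqstm1 the shares were 0.222% to 0.227% in Control, 0.186% to 0.188% in Cu_TCPP and 0.242% to 0.245% in Au_TCPP, so most of the difference between Au_TCPP and Control lay in that gene. Sqstm1 held the largest part of these counts: its level per length was 266 ± 12.5 in Control, 146 ± 10.7 in Cu_TCPP and 1133 ± 307 FPKM in Au_TCPP (SD, n = 3), against 69.3 ± 4.04 in Control, 45.9 ± 1.16 in Cu_TCPP and 127 ± 20.5 FPKM in Au_TCPP for Gabarap, the next in Control. At the other end, Atg10 stood at 1.56 ± 0.347 in Control, 0.98 ± 0.162 in Cu_TCPP and 2.14 ± 0.299 FPKM in Au_TCPP. By FPKM, which divides by gene length, the order in Control ran from Sqstm1 and Gabarap through Bnip3l (44.3), Gabarapl1 (26.4), Nbr1 (22.2), Map1lc3b (19.7) and Gabarapl2 (18.9) to Atg14 (3.11), Atg4a (2.88) and Atg10 (1.56). Map1lc3b and Gabarapl2 are neighbours in this order that did not differ beyond their spread, at 19.7 ± 0.919 and 18.9 ± 1.74 FPKM (SD, n = 3). In Au_TCPP, Gabarap and Gabarapl1 were next to each other, at 127 and 119 FPKM.

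With Cu_TCPP, 2 of the 37 genes were higher than in Control and 14 were lower, while 21 did not pass. Of all genes tested, 19.2% were called higher and 21.2% lower in this comparison. The median log2 fold change was -0.15 over the 37 genes and -0.01 over all genes tested. At a log2 fold change of at least 1, 0 of the 37 genes were higher and 3 lower, Calcoco1, Map1lc3a and Map1lc3b, where 1.56% and 6.68% of all genes passed.

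With Au_TCPP, 19 of the 37 were higher than in Control, 12 were lower and 6 did not pass. Here 34.4% of all genes tested were called higher and 34.7% lower, so a call by itself was common, and the share of the 37 called lower (32.4%) was near that background. The median log2 fold change was 0.35, against -0.01 over all genes. At a log2 fold change of at least 1, 9 were higher (13.6% of all genes) and 2 lower (15.2% of all genes).

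Between the materials, 21 of the 37 were higher in Au_TCPP than in Cu_TCPP, 9 were lower and 7 did not pass, where 34.6% of all genes were called higher and 31.3% lower. The median log2 difference was 0.69, against 0.04 over all genes. At least 1 log2 unit separated the materials for 12 genes that were higher (14.8% of all genes) and 1 that was lower (12% of all genes), Pik3r4. The comparisons share libraries, so their counts are not independent of one another.

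**Figure D1:**
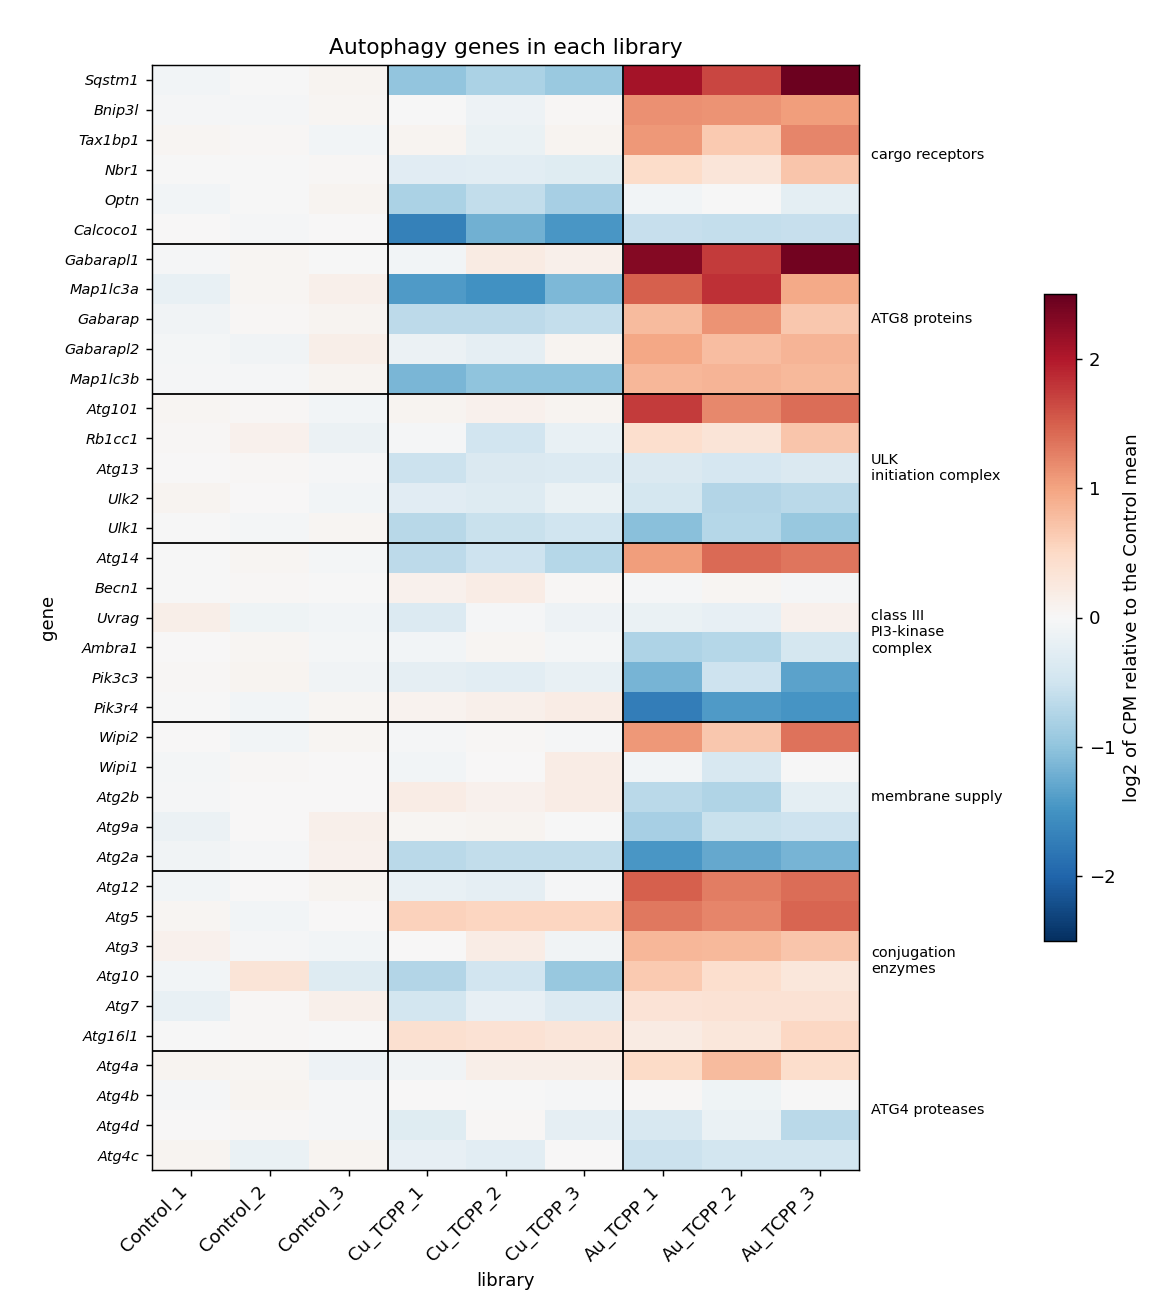
Level of each of the 37 autophagy genes (vertical axis, ordered by role) in each of the 9 libraries (horizontal axis), as log2 of CPM relative to the mean of Control. Blue marks levels below the Control mean and red levels above it: Sqstm1, the ATG8 genes, Atg5 and Atg12 are red in all 3 Au_TCPP libraries, and Sqstm1, Calcoco1, Map1lc3a and Map1lc3b are blue in all 3 Cu_TCPP libraries.

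The 6 cargo receptors were all higher in Au_TCPP than in Cu_TCPP. Against Control, 4 were lower with Cu_TCPP, 0 higher and 2 did not pass, and 4 were higher with Au_TCPP, 1 lower and 1 did not pass. Of all genes, 34.6% were higher in Au_TCPP than in Cu_TCPP. Against Control, 19.2% of all genes were higher and 21.2% lower with Cu_TCPP, and 34.4% higher and 34.7% lower with Au_TCPP. Sqstm1 (p62; ENSMUSG00000015837, mm10 chr11:50199366-50210827, minus strand) binds ubiquitinated cargo and also KEAP1, the inhibitor of the transcription factor NRF2. Its level was 871, 907 and 947 CPM in Control, 457, 527 and 480.3 CPM in Cu_TCPP and 3845, 2879 and 4944 CPM in Au_TCPP. The 3 groups did not overlap: Cu_TCPP was the lowest and Au_TCPP the highest, with a wider spread in Au_TCPP than in the other groups. Its log2 fold change was -0.90 (SE 0.15, adjusted p = 0.00036) for Cu_TCPP against Control, a 1.86-fold lower level, and 2.098 (SE 0.15, adjusted p = 3.6e-08) for Au_TCPP against Control, a 4.28-fold higher level. Between the materials the difference was 2.99 (SE 0.16, adjusted p = 1.9e-09), or 7.96-fold.

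Calcoco1 encodes a receptor for the endoplasmic reticulum and Golgi. Its level was 49.5, 48.1 and 49.1 CPM in Control, 15.1, 21.3 and 17.7 CPM in Cu_TCPP and 32.9, 32.2 and 32.9 CPM in Au_TCPP. Calcoco1 was the cargo receptor with the lowest levels relative to Control in both treated groups, and no 2 groups overlapped. On the log2 scale the change was -1.43 (SE 0.11, adjusted p = 5.5e-07) with Cu_TCPP and -0.58 (SE 0.11, adjusted p = 0.00024) with Au_TCPP, and Au_TCPP was 1.81-fold higher than Cu_TCPP (adjusted p = 1.0e-05).

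Bnip3l (NIX) is an outer mitochondrial membrane receptor for mitophagy, the removal of mitochondria by autophagy. Its level was 171, 171 and 180.3 CPM in Control, 174, 160.2 and 178 CPM in Cu_TCPP and 385, 382 and 359 CPM in Au_TCPP. The Control and Cu_TCPP libraries overlapped, and every Au_TCPP library lay above both. With Au_TCPP the log2 fold change was 1.11 (SE 0.08, adjusted p = 2.4e-08), a 2.16-fold higher level, while the value for Cu_TCPP, -0.03 (SE 0.08, adjusted p = 0.78), did not pass.

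Tax1bp1, a ubiquitin-binding receptor, showed the same order, at 114, 112 and 105 CPM in Control, 116, 97.99 and 115 CPM in Cu_TCPP and 232, 172 and 256 CPM in Au_TCPP. Its Control and Cu_TCPP libraries overlapped, and the Au_TCPP libraries lay above both, the lowest of them being replicate 2. The log2 fold change with Au_TCPP was 0.999 (SE 0.12, adjusted p = 5.1e-06), or 1.998-fold, and with Cu_TCPP -0.01 (SE 0.12, adjusted p = 0.96), which did not pass.

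Nbr1, a receptor that acts with p62 on ubiquitinated aggregates, stood at 156 ± 2.19 in Control, 128 ± 1.57 in Cu_TCPP and 219.6 ± 29.6 CPM in Au_TCPP (SD, n = 3). It was higher with Au_TCPP, by 0.50 (SE 0.09, adjusted p = 0.00028) on the log2 scale. With Cu_TCPP it was called lower, at -0.28 (SE 0.09, adjusted p = 0.028), but this call ended without any 1 of the 6 Control and Cu_TCPP libraries (adjusted p 0.0744 to 0.11). The same call also ended with no filter on low counts, offsets for gene length and limma on FPKM (adjusted p 0.0589 to 0.0912). Optn (optineurin), a receptor in mitophagy and in the clearance of bacteria, stood at 33.5 ± 1.52 in Control, 20.1 ± 1.62 in Cu_TCPP and 31.3 ± 2.56 CPM in Au_TCPP (SD, n = 3). With Cu_TCPP it fell, with a log2 fold change of -0.74 (SE 0.10, adjusted p = 6.0e-05), and its value with Au_TCPP, -0.10 (SE 0.10, adjusted p = 0.38), did not pass.

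**Figure D2:**
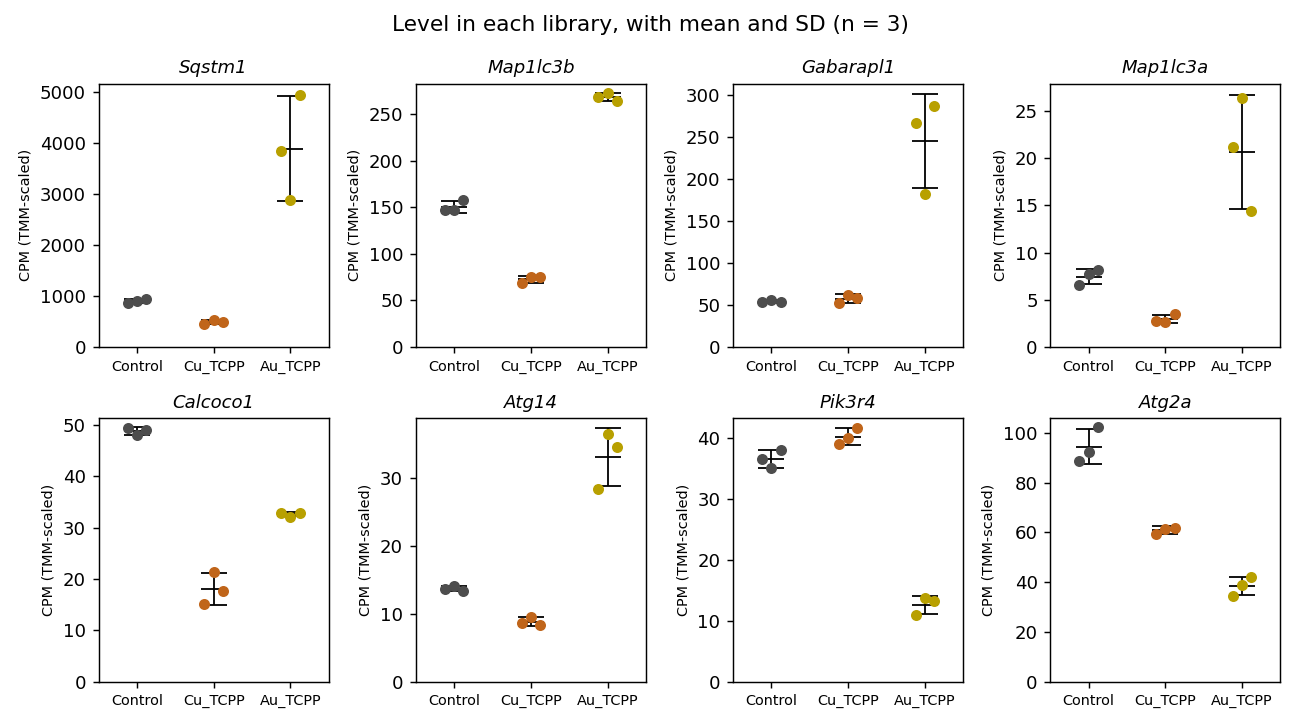
Level of 8 genes (one panel each) in CPM on a linear vertical axis that starts at 0, with the 3 groups on the horizontal axis. Points are libraries, the middle bar is the mean and the outer bars the SD (n = 3); Sqstm1 reaches 4944 CPM in an Au_TCPP library against at most 947 CPM in Control, while Pik3r4 and Atg2a are lowest in Au_TCPP.

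All 5 ATG8 genes were higher in Au_TCPP than in Control and than in Cu_TCPP. With Cu_TCPP, 3 of the 5 were lower than in Control and 2 did not pass. Of all genes, 34.4% were higher in Au_TCPP than in Control, 34.6% higher than in Cu_TCPP, and 21.2% lower in Cu_TCPP than in Control. Map1lc3b encodes LC3B, the ATG8 protein most used as a marker of autophagosomes (ENSMUSG00000031812, mm10 chr8:121590361-121598760, plus strand). Its level was 147, 147 and 158 CPM in Control, 68.6, 74.7 and 74.7 CPM in Cu_TCPP and 269, 273 and 264 CPM in Au_TCPP. The libraries of each group lay close together and no 2 groups overlapped, Cu_TCPP being the lowest and Au_TCPP the highest. In the edgeR fit the log2 fold change was -1.05 (SE 0.08, adjusted p = 4.4e-07) with Cu_TCPP, or 2.07-fold lower, and 0.83 (SE 0.08, adjusted p = 2.8e-07) with Au_TCPP, or 1.78-fold higher. Au_TCPP stood 3.70-fold above Cu_TCPP (adjusted p = 1.6e-10).

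Map1lc3a, which encodes LC3A, was measured at lower counts, with 6.56, 7.71 and 8.11 CPM in Control, 2.78, 2.60 and 3.45 CPM in Cu_TCPP and 21.1, 26.4 and 14.4 CPM in Au_TCPP. The 3 groups again did not overlap and had the same order. Its log2 fold change was -1.34 (SE 0.22, adjusted p = 0.00032) with Cu_TCPP and 1.47 (SE 0.20, adjusted p = 1.0e-05) with Au_TCPP, and the materials differed 7.02-fold (adjusted p = 4.1e-08).

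Gabarap, the first named of the GABARAP family, which acts in autophagosome closure and fusion, had levels of 122, 132 and 136 CPM in Control, 82.7, 83.2 and 86.5 CPM in Cu_TCPP and 226, 285 and 207 CPM in Au_TCPP. No 2 groups overlapped. The log2 fold change was -0.63 (SE 0.11, adjusted p = 0.00037) with Cu_TCPP and 0.88 (SE 0.11, adjusted p = 3.9e-06) with Au_TCPP, and the materials differed 2.84-fold (adjusted p = 2.0e-08).

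Gabarapl1 (ENSMUSG00000030161, mm10 chr6:129533160-129542346, plus strand), another member of that family, stood at 53.1, 55.9 and 53.5 CPM in Control, 51.8, 62.2 and 58.9 CPM in Cu_TCPP and 267, 182 and 288 CPM in Au_TCPP. Levels in Control and Cu_TCPP overlapped here, and all Au_TCPP libraries were far above both, with replicate 2 the lowest. The log2 fold change with Au_TCPP was 2.18 (SE 0.14, adjusted p = 9.9e-09), a 4.54-fold higher level and the largest of the 37 genes in that comparison, while the value with Cu_TCPP was 0.09 (SE 0.14, adjusted p = 0.64) and did not pass. Gabarapl2 (GATE-16), at 44.8 ± 3.91 in Control, 41.8 ± 4.36 in Cu_TCPP and 81.7 ± 5.75 CPM in Au_TCPP (SD, n = 3), rose by 0.87 (SE 0.10, adjusted p = 2.0e-06) with Au_TCPP, and its value with Cu_TCPP, -0.10 (SE 0.10, adjusted p = 0.46), did not pass.

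The 7 macrophage markers summed to 40.7 to 44.0 CPM in Control, 27.8 to 31.2 CPM in Cu_TCPP and 79.8 to 98.3 CPM in Au_TCPP, and Cd68 made up the largest part of the sum in Control and Au_TCPP. Cd68 was at 27.1 ± 1.94 in Control, 11.3 ± 2.11 in Cu_TCPP and 61.3 ± 12.1 CPM in Au_TCPP (SD, n = 3), in the order that Sqstm1 had. Cd14 was at 12.2 ± 0.489 in Control, 11.7 ± 0.424 in Cu_TCPP and 20.5 ± 1.91 CPM in Au_TCPP (SD, n = 3) and did not pass with Cu_TCPP, and Mrc1 was at 2.25 ± 0.283 in Control, 5.92 ± 0.577 in Cu_TCPP and 6.10 ± 3.73 CPM in Au_TCPP (SD, n = 3). Of the 7, these 3 had enough counts to be tested, and Adgre1, which encodes the F4/80 antigen, had no count in any library. The 6 fibroblast markers summed to 35.2 to 40.6 CPM in Control, 16.3 to 19.7 CPM in Cu_TCPP and 26.7 to 31.7 CPM in Au_TCPP, with Lum and Pdgfrb at 0. Nearly all of that sum was Pdgfra, at 34.99 ± 2.57 in Control, 17.2 ± 1.64 in Cu_TCPP and 27.9 ± 3.03 CPM in Au_TCPP (SD, n = 3), while Col1a1, the other of the 6 with enough counts, was at 2.08 ± 0.567 in Control, 0.863 ± 0.222 in Cu_TCPP and 0.545 ± 0.489 CPM in Au_TCPP (SD, n = 3). The lymphocyte markers reached at most 4.18 CPM and the endothelial markers 29.9 to 45.7 CPM. Nearly all of the endothelial sum was Eng, at 43.3 ± 2.29 in Control, 36.3 ± 0.932 in Cu_TCPP and 31.8 ± 2.98 CPM in Au_TCPP (SD, n = 3). Pecam1, Cdh5 and Kdr did not have enough counts to be tested. The part of these markers in the results was not tested.

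**Figure D3:**
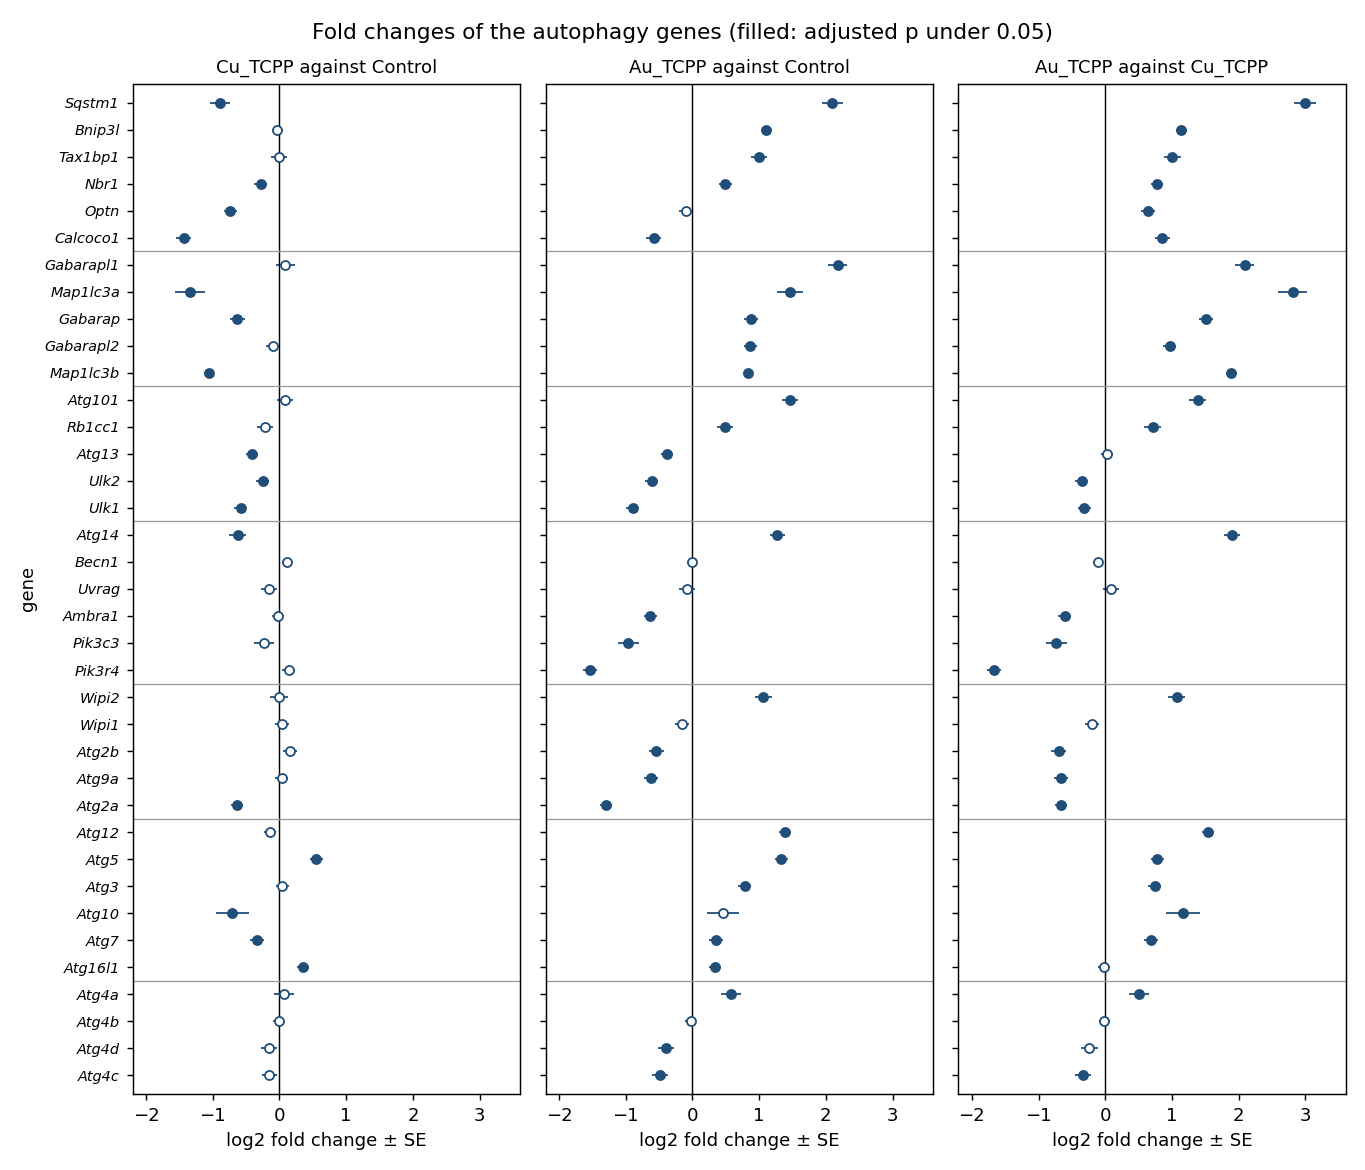
Log2 fold change (horizontal axis, with its SE as a bar) of each of the 37 autophagy genes (vertical axis, in blocks by role) in the 3 comparisons, from the edgeR fit; filled points have an adjusted p under 0.05. The 6 cargo receptors and 5 ATG8 genes, in the upper blocks, lie right of 0 for Au_TCPP against Cu_TCPP, whereas the blocks of the ULK, PI3-kinase and membrane supply genes hold points on both sides.

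The 5 genes of the ULK initiation complex divided by subunit. Against Control, 3 were lower with Cu_TCPP and 2 did not pass, and with Au_TCPP 2 were higher and 3 lower. Of all genes, 21.2% were lower with Cu_TCPP, and 34.4% were higher and 34.7% lower with Au_TCPP. The kinases were among the lower genes. Ulk1, the kinase that receives signals from mTORC1 and AMPK, was at 72.8, 70.6 and 75.8 CPM in Control, 45.03, 49.7 and 51.96 CPM in Cu_TCPP and 35.4, 44.4 and 37.95 CPM in Au_TCPP. No 2 groups overlapped and Control was the highest. Its log2 fold change was -0.58 (SE 0.09, adjusted p = 0.00027) with Cu_TCPP and -0.90 (SE 0.10, adjusted p = 1.2e-06) with Au_TCPP, and -0.32 (SE 0.10, adjusted p = 0.01) between the materials.

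Ulk2, the related kinase, was at 56.6, 54.5 and 51.3 CPM in Control, 44.4, 43.3 and 48.6 CPM in Cu_TCPP and 39.7, 32.8 and 34.2 CPM in Au_TCPP. The groups did not overlap, with Control the highest and Au_TCPP the lowest. The value with Au_TCPP was -0.61 (SE 0.09, adjusted p = 4.6e-05). The value with Cu_TCPP was -0.25 (SE 0.09, adjusted p = 0.041), a call that ended without any 1 of the 6 Control and Cu_TCPP libraries (adjusted p 0.0517 to 0.151). That call also ended with RLE factors, DESeq2, no filter on low counts, offsets for gene length and limma on FPKM (adjusted p 0.0657 to 0.147). With offsets for gene length, neither kinase differed between the materials at the threshold (adjusted p = 0.217 for Ulk1 and 0.0668 for Ulk2).

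Atg101, which stabilises ATG13 within the complex, was at 20.1, 19.96 and 18.6 CPM in Control, 20.5, 21.2 and 20.4 CPM in Cu_TCPP and 65.8, 44.8 and 51.7 CPM in Au_TCPP. The Au_TCPP libraries lay far above the others. With Au_TCPP the log2 fold change was 1.47 (SE 0.12, adjusted p = 9.5e-08), a 2.76-fold higher level, and with Cu_TCPP 0.08 (SE 0.13, adjusted p = 0.63), which did not pass although the libraries of Control and Cu_TCPP did not overlap. Rb1cc1 (FIP200), the scaffold of the complex, was at 52.9, 55.4 and 46.6 CPM in Control, 50.5, 37.2 and 45.2 CPM in Cu_TCPP and 69.3, 64.4 and 83.7 CPM in Au_TCPP. Control and Cu_TCPP overlapped and Au_TCPP lay above both, with a log2 fold change of 0.49 (SE 0.12, adjusted p = 0.0025) against Control. Atg13, the adaptor subunit, stood at 42.8 ± 1.07 in Control, 32.2 ± 2.40 in Cu_TCPP and 32.9 ± 0.649 CPM in Au_TCPP (SD, n = 3), and it was lower in both comparisons with Control (-0.41 and -0.38, adjusted p = 0.0017 and 0.0013).

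Of the 6 genes of the class III PI3-kinase complex, 1 was lower with Cu_TCPP and 5 did not pass, and with Au_TCPP 1 was higher, 3 were lower and 2 did not pass. Over all genes, 21.2% were lower with Cu_TCPP, and 34.4% were higher and 34.7% lower with Au_TCPP. Atg14 directs this complex to autophagy. Its level was 13.7, 14.1 and 13.3 CPM in Control, 8.68, 9.56 and 8.36 CPM in Cu_TCPP and 28.4, 36.5 and 34.6 CPM in Au_TCPP. The 3 groups did not overlap, in the order Cu_TCPP, Control, Au_TCPP. On the log2 scale the change was -0.63 (SE 0.12, adjusted p = 0.0011) with Cu_TCPP and 1.27 (SE 0.12, adjusted p = 2.2e-07) with Au_TCPP, and the materials differed 3.73-fold (adjusted p = 6.2e-09).

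The catalytic and the regulatory subunit of the kinase were both lower with Au_TCPP. Pik3r4 (VPS15), the regulatory subunit, was at 36.5, 35.1 and 37.99 CPM in Control, 38.96, 40.02 and 41.7 CPM in Cu_TCPP and 10.98, 13.8 and 13.2 CPM in Au_TCPP. All Au_TCPP libraries lay far below the other 6. The log2 fold change with Au_TCPP was -1.53 (SE 0.10, adjusted p = 1.1e-08), a 2.89-fold lower level and the largest fall among the 37 genes, while with Cu_TCPP it was 0.14 (SE 0.09, adjusted p = 0.26) and did not pass. Pik3c3 (VPS34), the lipid kinase itself, was at 29.3, 30.3 and 27.1 CPM in Control, 24.7, 23.9 and 25.5 CPM in Cu_TCPP and 12.9, 20.1 and 11.4 CPM in Au_TCPP. Au_TCPP lay below both other groups, and replicate 2 was the nearest to them. The value was -0.96 (SE 0.16, adjusted p = 8.3e-05) with Au_TCPP and -0.23 (SE 0.15, adjusted p = 0.25) with Cu_TCPP, which did not pass. In an edgeR fit of the 6 Control and Cu_TCPP libraries alone, it was called lower with Cu_TCPP (-0.22, adjusted p = 0.0279). The same held without Au_TCPP replicate 2 (-0.216, adjusted p = 0.0441).

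Ambra1, which links the complex to ULK1 and to ubiquitin ligases, was at 41.1, 42.2 and 39.7 CPM in Control, 39.2, 42.1 and 39.8 CPM in Cu_TCPP and 24.1, 25.1 and 30.4 CPM in Au_TCPP. The Control and Cu_TCPP libraries overlapped and Au_TCPP lay below both, with a log2 fold change of -0.63 (SE 0.10, adjusted p = 5.1e-05) against Control. Becn1 (Beclin 1), the core subunit, stood at 54.8 ± 1.06 in Control, 59.2 ± 3.29 in Cu_TCPP and 54.8 ± 1.63 CPM in Au_TCPP (SD, n = 3), and Uvrag, the subunit that replaces ATG14 in the endosomal form of the complex, at 31.8 ± 3.08 in Control, 28.5 ± 3.25 in Cu_TCPP and 30.2 ± 3.59 CPM in Au_TCPP (SD, n = 3). Neither passed in any of the 3 comparisons, with log2 fold changes with Au_TCPP of -0.002 (SE 0.08, adjusted p = 0.99) and -0.08 (SE 0.12, adjusted p = 0.58).

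Of the 5 genes of membrane supply, 1 was lower with Cu_TCPP and 4 did not pass, and with Au_TCPP 1 was higher, 3 lower and 1 did not pass. Among all genes, 21.2% were lower with Cu_TCPP, and 34.4% were higher and 34.7% lower with Au_TCPP. Atg2a and Atg2b encode lipid transfer proteins that bridge the endoplasmic reticulum and the growing membrane. Atg2a was at 88.6, 92.2 and 102 CPM in Control, 59.1, 61.5 and 61.9 CPM in Cu_TCPP and 34.4, 38.96 and 41.9 CPM in Au_TCPP. No 2 groups overlapped, and the level was highest in Control and lowest in Au_TCPP. In the edgeR fit the log2 fold change was -0.63 (SE 0.09, adjusted p = 7.7e-05) with Cu_TCPP and -1.30 (SE 0.09, adjusted p = 1.6e-08) with Au_TCPP, a 2.46-fold lower level.

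Atg2b was at 93.5, 96.1 and 95.6 CPM in Control, 108, 103 and 108 CPM in Cu_TCPP and 59.6, 56.5 and 80.2 CPM in Au_TCPP. It was lowest in Au_TCPP, where replicate 3 lay above the other libraries of the group, and Cu_TCPP lay above Control without overlap. The value with Au_TCPP was -0.54 (SE 0.11, adjusted p = 0.00052), and with Cu_TCPP 0.16 (SE 0.11, adjusted p = 0.25), which did not pass. In an edgeR fit of the 6 Control and Cu_TCPP libraries alone, Atg2b was called higher with Cu_TCPP (0.167, adjusted p = 0.0169). Atg2b has a long gene model (13456 nt), and with offsets for gene length its value with Au_TCPP was -0.04 (adjusted p = 0.749).

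Atg9a encodes the lipid scramblase carried by the vesicles that seed the membrane. Its level was 33.9, 37.6 and 40.96 CPM in Control, 38.7, 39.2 and 37.2 CPM in Cu_TCPP and 21.1, 25.5 and 26.3 CPM in Au_TCPP. Levels in Control and Cu_TCPP overlapped and Au_TCPP lay below both, with a log2 fold change of -0.63 (SE 0.11, adjusted p = 9.8e-05). Wipi2, which reads the lipid made by PIK3C3 and recruits ATG16L1, was at 134, 127 and 137 CPM in Control, 131, 136 and 130.1 CPM in Cu_TCPP and 281, 211 and 340.2 CPM in Au_TCPP. Control and Cu_TCPP overlapped and all Au_TCPP libraries lay above them, at 1.06 (SE 0.13, adjusted p = 4.4e-06) or 2.09-fold. Its relative Wipi1 stood at 45.05 ± 1.39 in Control, 46.5 ± 4.12 in Cu_TCPP and 40.6 ± 5.69 CPM in Au_TCPP (SD, n = 3) and did not pass in any of the 3 comparisons.

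Of the 6 conjugation enzymes, 5 were higher with Au_TCPP than with Control and 1 did not pass, where 34.4% of all genes were higher. With Cu_TCPP 2 were higher, 2 lower and 2 did not pass, where 19.2% of all genes were higher and 21.2% lower. ATG12 is a ubiquitin-like protein that is joined to ATG5, and this pair with ATG16L1 places ATG8 on the membrane. Atg12 was at 31.5, 33.2 and 34.7 CPM in Control, 29.1, 28.5 and 32.5 CPM in Cu_TCPP and 92.9, 80.5 and 87.3 CPM in Au_TCPP. The Control and Cu_TCPP libraries overlapped and Au_TCPP lay above both, with a log2 fold change of 1.39 (SE 0.09, adjusted p = 6.8e-09), or 2.63-fold. Atg5 was at 15.9, 14.7 and 15.5 CPM in Control, 22.9, 22.4 and 22.3 CPM in Cu_TCPP and 38.4, 35.8 and 42.1 CPM in Au_TCPP. Its 3 groups did not overlap and both treated groups lay above Control. The log2 fold change was 0.55 (SE 0.10, adjusted p = 0.00052) with Cu_TCPP, the largest rise of the 37 genes in that comparison, and 1.33 (SE 0.10, adjusted p = 2.3e-08) with Au_TCPP, and the materials differed by 0.78 (SE 0.10, adjusted p = 4.4e-06).

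Atg3, the E2-like enzyme that passes ATG8 to the lipid, was at 26.2, 23.8 and 23.4 CPM in Control, 24.5, 27.8 and 23.2 CPM in Cu_TCPP and 43.4, 43.1 and 39.6 CPM in Au_TCPP. Levels in Control and Cu_TCPP overlapped, and Au_TCPP lay above both, at 0.78 (SE 0.10, adjusted p = 5.6e-06). Atg7, the E1-like enzyme that activates ATG8 and ATG12, was at 20.8, 23.95 and 25.9 CPM in Control, 17.1, 20.4 and 18.5 CPM in Cu_TCPP and 29.9, 30.1 and 30.1 CPM in Au_TCPP. All Au_TCPP libraries lay above the others and all Cu_TCPP libraries below Control. The value was 0.35 (SE 0.11, adjusted p = 0.009) with Au_TCPP, a call that ended without Control replicate 1 (adjusted p = 0.0978). With Cu_TCPP it was -0.33 (SE 0.11, adjusted p = 0.023), a call that ended without Control replicate 2 or 3 or Cu_TCPP replicate 1 or 3 (adjusted p 0.0742 to 0.139). The call with Cu_TCPP also ended with no filter on low counts, offsets for gene length and limma on FPKM (adjusted p 0.0564 to 0.081).

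Atg16l1, the partner of the ATG12-ATG5 pair, stood at 33.7 ± 0.45 in Control, 42.97 ± 1.54 in Cu_TCPP and 42.6 ± 4.75 CPM in Au_TCPP (SD, n = 3). It was higher than Control with both materials, by 0.35 (SE 0.09, adjusted p = 0.0074) and 0.34 (SE 0.09, adjusted p = 0.005). Atg10, the E2-like enzyme for ATG12 and the gene with the lowest FPKM in Control, stood at 2.73 ± 0.612 in Control, 1.67 ± 0.277 in Cu_TCPP and 3.76 ± 0.52 CPM in Au_TCPP (SD, n = 3). Its value was -0.70 (SE 0.25, adjusted p = 0.038) with Cu_TCPP, a call that ended without Control replicate 1 or 2 or Cu_TCPP replicate 1 or 3 (adjusted p 0.0711 to 0.197), and 0.46 (SE 0.24, adjusted p = 0.1) with Au_TCPP, which did not pass. The Atg10 call with Cu_TCPP also ended with DESeq2, offsets for gene length and no filter on low counts (adjusted p 0.0517 to 0.0744). With library totals alone in place of TMM factors, the values of Atg7 and Atg16l1 for Au_TCPP against Control were -0.07 (adjusted p = 0.594) and -0.09 (adjusted p = 0.415).

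The upstream sequence of the conjugation genes that hold the letters CACGTG is shown because they share a motif and were called higher with Au_TCPP. As they were picked by motif and call, that they have both is not a result. The window searched was the 250 bases before the gene start in the RefSeq promoter table (GRCm38.p6), where 30 of the 37 genes had an entry, and both strands were read. Atg12 and Atg16l1, conjugation genes also called higher with Au_TCPP, had no entry and were not searched. All 250 bases were searched, exonic bases included, so some windows consist in part or whole of exons of the same or another gene. CACGTG is the core of the E-box in the CLEAR element, which the transcription factor TFEB and its relatives bind in genes of autophagy and the lysosome. It was present in 3 of the 34 entries of these 30 genes, those of Atg3, Atg5 and Atg7, and in 6.02% of all 32851 promoters of the table. The part of the motif in the calls was not tested. The sequences are given 5′ to 3′ on the plus strand, with CACGTG in capitals, and bases in an exon of any GENCODE M21 gene are left out. Those of Atg3 (chr16:45158707-45158784) and Atg5 (chr10:44268089-44268338) lie before the first exon of the GENCODE models, while that of Atg7 (chr6:114670846-114671095) lies inside the gene, before a start site within the longest GENCODE model.
Atg3: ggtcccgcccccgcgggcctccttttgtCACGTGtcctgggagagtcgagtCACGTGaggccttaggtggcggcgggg
Atg5: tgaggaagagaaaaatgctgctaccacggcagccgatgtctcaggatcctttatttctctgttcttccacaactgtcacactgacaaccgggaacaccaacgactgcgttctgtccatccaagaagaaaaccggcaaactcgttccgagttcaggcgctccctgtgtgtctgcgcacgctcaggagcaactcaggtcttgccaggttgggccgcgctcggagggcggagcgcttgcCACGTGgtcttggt
Atg7: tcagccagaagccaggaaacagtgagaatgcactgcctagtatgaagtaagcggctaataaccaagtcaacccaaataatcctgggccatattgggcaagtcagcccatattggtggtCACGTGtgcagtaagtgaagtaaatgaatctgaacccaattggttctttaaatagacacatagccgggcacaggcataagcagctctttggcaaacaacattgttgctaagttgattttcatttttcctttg

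In Atg3 the motif occurs in a pair, starting 94 and 71 bases before the RefSeq start, whereas Atg5 has it once, 14 bases before, and Atg7 once, 132 bases before. The letters TGACNNNGC, the core of the antioxidant response element that NRF2 binds, were found in 3 of the 34 entries and in 10.16% of all promoters. These were the entries of Tax1bp1, which was called higher with Au_TCPP, and of Atg13 and Ulk2, which were called lower. TGATGCAA, the amino acid response element of ATF4, and GTAAACA, a FOXO site, were found in 0 of the 34 entries and in 0.79% and 3.17% of all promoters. None of these matches overlapped another. The window of Sqstm1, the gene with the highest level and the largest difference between the materials, held none of the 4 motifs. The 62 bases nearest to its first exon, on the minus strand (chr11:50210828-50210889), are shown in lower case throughout; beyond them lies an exon of Mgat4b on the other strand.
Sqstm1: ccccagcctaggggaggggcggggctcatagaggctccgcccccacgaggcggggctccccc

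The ATG4 proteases trim new ATG8 proteins and release them from membranes. Of the 4 genes, 0 passed with Cu_TCPP against Control, and with Au_TCPP 1 was higher, 2 were lower and 1 did not pass. Over all genes, 19.2% were higher and 21.2% lower with Cu_TCPP, and 34.4% higher and 34.7% lower with Au_TCPP. Atg4a was at 8.22, 8.04 and 7.18 CPM in Control, 7.32, 8.60 and 8.70 CPM in Cu_TCPP and 10.9, 13.5 and 10.7 CPM in Au_TCPP, and the Au_TCPP libraries lay above the rest. Its log2 fold change with Au_TCPP was 0.58 (SE 0.15, adjusted p = 0.0029) against Control and 0.51 (SE 0.15, adjusted p = 0.007) against Cu_TCPP. The call against Control ended with library totals alone (0.164, adjusted p = 0.387). That against Cu_TCPP ended without Cu_TCPP replicate 1 (adjusted p = 0.0517), with offsets for gene length (0.285, adjusted p = 0.0865) and with library totals alone (0.143, adjusted p = 0.457).

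Atg4c was at 19.8, 16.7 and 19.8 CPM in Control, 16.4, 15.6 and 18.8 CPM in Cu_TCPP and 13, 13.7 and 13.7 CPM in Au_TCPP. Au_TCPP lay below both other groups, with -0.48 (SE 0.12, adjusted p = 0.0025) against Control and -0.33 (SE 0.12, adjusted p = 0.026) against Cu_TCPP, the latter lost without Cu_TCPP replicate 3 (adjusted p = 0.122). Atg4d was at 33.1, 33.3 and 32.02 CPM in Control, 26.6, 33.4 and 28.1 CPM in Cu_TCPP and 24.8, 29.3 and 20.6 CPM in Au_TCPP. Au_TCPP lay below Control and overlapped Cu_TCPP, with -0.40 (SE 0.12, adjusted p = 0.011) against Control. With offsets for gene length this value was -0.10 (adjusted p = 0.527). Atg4b, the protease most active on the ATG8 family, was at 56.5, 60.6 and 56.7 CPM in Control, 58.4, 57.2 and 56.8 CPM in Cu_TCPP and 59.5, 54.03 and 57.4 CPM in Au_TCPP. Its 3 groups overlapped, with -0.01 (SE 0.08, adjusted p = 0.91) for Cu_TCPP and -0.02 (SE 0.08, adjusted p = 0.79) for Au_TCPP, and neither passed.

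Gene length moved with the calls for Au_TCPP. The median gene length was 3356 nt for the 19 genes higher than Control and 6050 nt for the 12 lower. All 5 of the 37 genes with a length of 4500 to 6500 nt were lower. Their median log2 fold change was -0.63, against -0.21 over all genes of that range. The share called lower among the 2625 genes tested in that range was not counted. Over all lengths it was 34.7%. Over all genes tested, the median log2 fold change for Au_TCPP against Control fell from 0.49 for genes of up to 2000 nt to -0.50 for genes longer than 9000 nt, and the mean length of a counted gene was 4549 to 4669 nt in the Au_TCPP libraries against 5601 to 5754 nt in the others. With offsets for this trend, 22 of the 37 genes were higher and 10 lower in Au_TCPP, and 19 and 10 of these were among those called without offsets. Of the 13915 genes tested, 9196 were called with the offsets. Their split into higher and lower was not counted, so the 22 and 10 have no background of their own. The 5 ATG8 genes, 4 of the 6 receptors and 5 of the 6 conjugation enzymes were called higher with and without the offsets. Becn1 (0.29, adjusted p = 0.00547), Uvrag (0.30, adjusted p = 0.0321) and Atg4b (0.32, adjusted p = 0.00262) were called higher with the offsets alone.

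**Figure D4:**
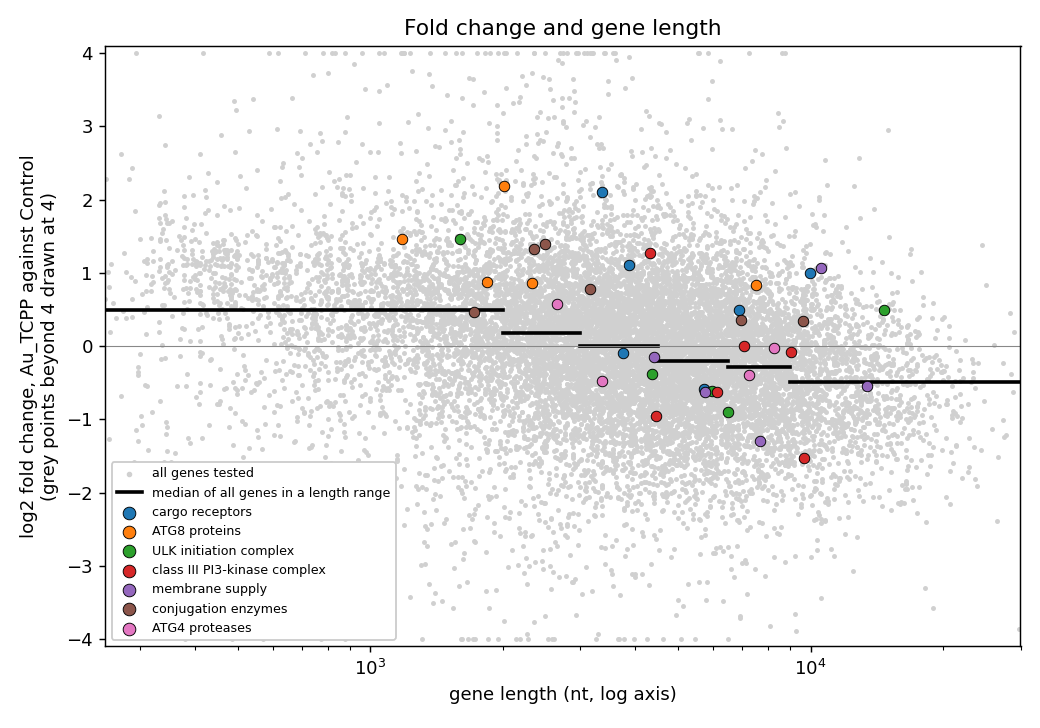
Log2 fold change for Au_TCPP against Control (vertical axis) and gene length in nt (horizontal log axis), with all 13915 genes tested in grey, those beyond 4 drawn at the edge, and the 37 autophagy genes coloured by role. Black lines are medians of all genes in 6 length ranges and fall from 0.49 to -0.50. Map1lc3b (7517 nt), Tax1bp1 (9991 nt) and Wipi2 (10543 nt) lie above the line of their range, and Pik3r4 (9660 nt) lies below it.

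The split of calls depended on the scaling. With library totals alone, the median of all genes was -0.43 for Au_TCPP against Control, and 14 of the 37 genes were higher and 17 lower. Of the 13915 genes tested, 9724 were called under that scaling. Their split into higher and lower was not counted, so these counts have no background of their own. Nbr1, Rb1cc1, Atg7, Atg16l1 and Atg4a no longer passed as higher (adjusted p 0.387 to 0.652), and Becn1, Optn, Uvrag, Wipi1 and Atg4b were called lower, at -0.42 to -0.58. Between the materials the median of all genes was -0.33, and 19 of the 37 genes were higher and 16 lower, with Optn no longer called among the cargo receptors (0.27, adjusted p = 0.0534). Here 9356 of all genes tested were called, again without a split by direction. The 5 ATG8 genes were called higher in Au_TCPP in both comparisons under that scaling too.

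Whether reads were counted by strand was not given in the sources used here, and 12 of the 37 genes share exonic bases with a gene on the other strand. For 4 of these the partner had counts of its own that were not small: Map1lc3b and Zcchc14 share 58 bases, Atg9a and Ankzf1 46, Atg4d and Kri1 1405, and Atg2b and Gskip 383. Reads of these pairs may be mixed over the shared bases, so their values are uncertain to that extent. Sqstm1 shares 580 bases with Mrnip, which had 642 counts over the 9 libraries against 229942 for Sqstm1. Longer stretches are shared by Becn1 with Cntd1 (3104 bases) and by Uvrag with Gm45187 (1589 bases). Atg9a also shares 1832 bases with Gm29253 on the same strand. How reads over shared bases were assigned is not given, so a low count of the partner does not show that no reads were lost.

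Of 60 other genes of the pathway, 57 had enough counts to be tested. Length offsets and other scalings were read for the 37 genes only, so the values of these other genes were not checked against them. Some of them are long, such as Wdfy3 (15346 nt) and Tecpr1 (12772 nt). With Cu_TCPP, 5 were higher than in Control, 18 lower and 34 did not pass, and with Au_TCPP 23 were higher, 21 lower and 13 did not pass. Between the materials 29 were higher in Au_TCPP, 15 lower and 13 did not pass. The median log2 fold changes were -0.06, 0.08 and 0.23, against -0.01, -0.01 and 0.04 over all genes. With Cu_TCPP, 8.77% of the 57 were higher and 31.6% lower, where 19.2% and 21.2% of all genes were. With Au_TCPP the shares were 40.4% and 36.8%, near the 34.4% and 34.7% of all genes, so a call in that comparison was common. Between the materials they were 50.9% and 26.3%, where 34.6% and 31.3% of all genes were called.

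Among 20 genes of upstream control, which carry nutrient and stress signals to the machinery, 1 was higher and 10 lower with Cu_TCPP, and 7 were higher and 10 lower with Au_TCPP. With Cu_TCPP these were 5% and 50%, beside 19.2% and 21.2% of all genes. With Au_TCPP they were 35% and 50%, beside 34.4% and 34.7% of all genes. Sesn2, a stress-induced inhibitor of mTORC1, was at 30.95, 30.3 and 32.1 CPM in Control, 46.7, 48.04 and 43.5 CPM in Cu_TCPP and 175, 148 and 177 CPM in Au_TCPP. No 2 groups overlapped, and the log2 fold change was 0.57 (SE 0.09, adjusted p = 0.00022) with Cu_TCPP and 2.42 (SE 0.09, adjusted p = 5.0e-11) with Au_TCPP. Trp53inp1, a p53 target that binds ATG8 proteins, was at 23.3, 21.8 and 19.8 CPM in Control, 3.18, 2.44 and 3.16 CPM in Cu_TCPP and 32.3, 57.3 and 35.98 CPM in Au_TCPP. It was lowest in Cu_TCPP, with -2.89 (SE 0.22, adjusted p = 7.3e-07), and highest in Au_TCPP, with 0.95 (SE 0.18, adjusted p = 0.00029), so that the materials differed 14.3-fold. Deptor, an inhibitor within the mTOR complexes, was at 91.3, 87.2 and 85.3 CPM in Control, 112, 92.05 and 100.4 CPM in Cu_TCPP and 22.6, 22.1 and 33.9 CPM in Au_TCPP. Control and Cu_TCPP lay close to each other and Au_TCPP far below, with -1.75 (SE 0.14, adjusted p = 4.6e-08) against Control.

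Among 13 tested genes for other selective autophagy receptors and their control, kinases included, 2 were higher and 1 lower with Cu_TCPP, and 8 were higher and 3 lower with Au_TCPP. The shares with Cu_TCPP were 15.4% and 7.69%, beside 19.2% and 21.2% of all genes. Those with Au_TCPP were 61.5% and 23.1%, beside 34.4% and 34.7% of all genes. Bnip3, the relative of Bnip3l and like it a mitophagy receptor, was at 53.2, 49.6 and 49.3 CPM in Control, 67.99, 64.3 and 68 CPM in Cu_TCPP and 189, 258 and 182 CPM in Au_TCPP. The groups did not overlap and both treated groups lay above Control, with 0.40 (SE 0.12, adjusted p = 0.015) for Cu_TCPP and 2.05 (SE 0.12, adjusted p = 2.4e-09) for Au_TCPP, against the value of 1.11 for Bnip3l. Pink1, the kinase that marks damaged mitochondria for mitophagy, was at 31.5, 35.8 and 38.5 CPM in Control, 11.3, 14.5 and 14.6 CPM in Cu_TCPP and 28.01, 27.96 and 30.5 CPM in Au_TCPP. Its lowest level was in Cu_TCPP, at -1.39 (SE 0.12, adjusted p = 1.3e-06). Wdfy3 (ALFY), a large scaffold for aggregates, was at 91.97, 83.7 and 84 CPM in Control, 93.1, 83.6 and 88.7 CPM in Cu_TCPP and 28.2, 42.5 and 41.6 CPM in Au_TCPP, and the Au_TCPP libraries lay below the rest, at -1.21 (SE 0.13, adjusted p = 7.6e-07).

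Of 9 other membrane factors, 1 was higher and 3 lower with Cu_TCPP, and 4 were higher and 1 lower with Au_TCPP. The shares with Cu_TCPP were 11.1% and 33.3%, beside 19.2% and 21.2% of all genes. Those with Au_TCPP were 44.4% and 11.1%, beside 34.4% and 34.7% of all genes. Tmem41b, a scramblase of the endoplasmic reticulum, stood at 41.1 ± 0.613 in Control, 51.9 ± 3.74 in Cu_TCPP and 118 ± 29.2 CPM in Au_TCPP (SD, n = 3) and rose by 1.52 (SE 0.15, adjusted p = 6.0e-07) with Au_TCPP. Wdr45b (WIPI3) stood at 67.8 ± 2.73 in Control, 87.6 ± 4.94 in Cu_TCPP and 140.3 ± 14.01 CPM in Au_TCPP (SD, n = 3) and Zfyve1 (DFCP1), which marks the site where the membrane forms, at 58.01 ± 3.17 in Control, 28.9 ± 0.468 in Cu_TCPP and 45.4 ± 3.33 CPM in Au_TCPP (SD, n = 3). The value with Au_TCPP was 1.05 (SE 0.09, adjusted p = 9.8e-08) for Wdr45b. That with Cu_TCPP was -1.003 (SE 0.09, adjusted p = 1.4e-06) for Zfyve1.

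Of 15 genes for fusion with the lysosome, 1 was higher and 4 lower with Cu_TCPP, or 6.67% and 26.7% beside 19.2% and 21.2% of all genes. With Au_TCPP 4 were higher and 7 lower, or 26.7% and 46.7% beside 34.4% and 34.7% of all genes. The adaptor Plekhm1 stood at 44.03 ± 1.82 in Control, 36.6 ± 1.38 in Cu_TCPP and 20.4 ± 1.76 CPM in Au_TCPP (SD, n = 3), the tethering factor Tecpr1 at 63.1 ± 5.35 in Control, 32.9 ± 3.17 in Cu_TCPP and 24.2 ± 4.57 CPM in Au_TCPP (SD, n = 3), and Vps16, a core subunit of the HOPS tethering complex, at 95.6 ± 4.30 in Control, 92.6 ± 0.558 in Cu_TCPP and 55.4 ± 2.58 CPM in Au_TCPP (SD, n = 3). With Au_TCPP their log2 fold changes were -1.11 (SE 0.09, adjusted p = 9.5e-08), -1.38 (SE 0.13, adjusted p = 2.4e-07) and -0.79 (SE 0.08, adjusted p = 4.0e-07).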

How the data were processed

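Polyadenylated RNA of 4T1 cells was made into libraries with QIAGEN's QIAseq FX kit and read on a HiSeq2000, per the labels. The submitters' processing notes name mm10, Bowtie 0.12.9, Cufflinks 2.1.1 and HTSeq; their roles, and whether counting used strand, are not given in the sources used here. Raw counts per gene and library are deposited, per the file headers. The authors also deposited FPKM, scaled by length and depth per the file headers, with a factor per library of unstated origin. The authors' own comparisons were not used.

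Counts of 54532 genes were fitted with edgeR 4.0.16 in R 4.3.3: TMM factors, filterByExpr (13915 genes kept), the robust quasi-likelihood test with 1 mean for each group over all 9 libraries, and p-values adjusted by Benjamini-Hochberg across all genes tested. Standard errors of log2 fold changes are the size of the change over the root of F. The fit was tested on simulated data in which few genes changed, in equal numbers up and down. As many more genes were called here, that test does not bear on the choice of scaling. CPM use effective library totals, 12673478 to 18838161. The 37 genes and the lists were chosen with earlier results of these data known. In each role, values per library are given for up to 4 genes that reached 5 CPM in a group compared and had the largest absolute log2 fold change in any comparison; of the other pathway genes, the 3 per role with the smallest p are named.

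Alternatives were a replicate block, library totals alone or RLE factors as scaling, no filter or one of 1 CPM in 3 libraries, fits of only the 6 libraries compared, DESeq2 1.42.0, length offsets (spline with 5 degrees of freedom), limma 3.58.1 on log2(FPKM + 1) and log2(FPKM + 0.1), a log2 fold change of at least 1, and leaving out each library. Of the 37 gene models, 36 have the same coordinates in GENCODE M21.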

Additional observations from a re-analysis of the deposited data

How the results depend on the processing

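Of the calls, 12 of 16 for Cu_TCPP against Control, 24 of 31 for Au_TCPP against Control and 25 of 30 between the materials were made under every alternative test and scaling and without each library. Leaving out 1 library gave 2 genes higher and 10 to 15 lower for Cu_TCPP, 18 to 19 higher and 12 lower for Au_TCPP, and 20 to 21 higher and 8 to 10 lower between the materials. At a log2 fold change of at least 1, the counts of higher and lower genes were 0 and 3, 9 and 2, and 12 and 1.

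Library totals alone gave 16 lower genes between the materials in place of 9, with the median of all genes at -0.33. They turned the sign of Atg16l1 (-0.0869) and Atg7 (-0.0701) for Au_TCPP against Control, and of Atg13 (-0.35) and Uvrag (-0.29) between the materials. Length offsets turned Atg4b (0.32), Becn1 (0.29) and Uvrag (0.30) for Au_TCPP against Control, and Atg16l1 (0.29) and Atg4b (0.24) between the materials. Of these, only Atg16l1 and Atg7 against Control had been called; the cause was not tested.

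Same-numbered libraries had correlations of deviations from -0.0846 to 0.0897, and not every library correlated best with its own number, so the numbers were not taken as pairs. With the replicate block the counts were 2 higher and 14 lower, 19 and 12, and 21 and 9, as without it, and no call changed. Depth limited Atg10 most, at 1.67 to 3.76 CPM on average per group. With 3 libraries a group, a value that did not pass does not show that levels were equal.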

Other observations

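The TFEB family, whose members bind the CLEAR element, was in the list of upstream control, and its genes were picked for description here after their values were seen. Tfeb was at 13.6, 13.2 and 13.2 CPM in Control, 5.78, 7.54 and 6.16 CPM in Cu_TCPP and 4.85, 7.28 and 7.02 CPM in Au_TCPP. Mitf was at 13.1, 11.5 and 13.7 CPM in Control, 8.17, 5.79 and 8.08 CPM in Cu_TCPP and 7.02, 5.02 and 9.23 CPM in Au_TCPP. Both were lower than in Control in the treated groups, without overlap. The log2 fold changes of Tfeb were -1.04 (SE 0.16, adjusted p = 0.0002) with Cu_TCPP and -1.06 (SE 0.17, adjusted p = 5.5e-05) with Au_TCPP, and those of Mitf -0.80 (SE 0.19, adjusted p = 0.0046) and -0.85 (SE 0.20, adjusted p = 0.0016). Tfe3, the third relative, was at 57.8, 60.4 and 63.9 CPM in Control, 68.96, 77.5 and 72.4 CPM in Cu_TCPP and 104, 72.3 and 111 CPM in Au_TCPP, with 0.27 (SE 0.13, adjusted p = 0.11) for Cu_TCPP, which did not pass, and 0.66 (SE 0.13, adjusted p = 0.00032) for Au_TCPP. Mtor, the kinase that holds this family in the cytoplasm when nutrients are present, was at 106, 96.5 and 104 CPM in Control, 108, 115 and 111 CPM in Cu_TCPP and 35.8, 49.1 and 40.3 CPM in Au_TCPP, with the Au_TCPP libraries far below the rest, at -1.29 (SE 0.10, adjusted p = 5.5e-08) against Control. Mtor comes from a list in which 7 genes were higher and 10 lower with Au_TCPP. Its gene model is long (10109 nt), and the part of gene length in its value was not tested.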
